A study of Mus musculus with 8 samples.

Results

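The genes described here make fatty acids, lengthen and desaturate them, and attach them to coenzyme A. The list held 10 genes, namely Acly, Acss2, Acaca, Fasn, Scd1, Scd2, Fads2, Elovl5, Elovl6 and Acsl3. They were found by symbol, old or current, among the probe sets that the platform annotation assigns to a single gene. Of the 10, 9 had such a probe set, out of 17097 genes named on the array; Scd2 was not analysed here. Those 9 genes had 20 probe sets, and each gene's values come from its probe set with the highest mean over the 8 arrays unless another is named.

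Each array held RNA from CD4+CD25+ regulatory T cells, the T cells that restrain immune responses, sorted from spleen and peripheral lymph nodes of C57Bl/6J mice and used without treatment. The RaptorKO group, 4 arrays, came from CD4(cre)Raptor(fl/fl) mice, in which a Cre recombinase under Cd4 control deletes the floxed gene for Raptor, and the WT group, 4 arrays, from wild-type mice. Cd4-driven Cre acts in all T cells that pass through a CD4+ stage, so the deletion is not limited to regulatory T cells. Ages are not given in the labels, nor whether an array stands for 1 mouse or several, so the p-values describe the spread among these 8 arrays, part of which may be technical. All values are log2 intensities, all changes are RaptorKO minus WT on that scale, and a gene was called at a limma adjusted p under 0.05 over the 11413 genes tested.

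Raptor is the scaffold of the kinase complex mTORC1, which is known to raise lipid synthesis through the SREBP transcription factors. Fatty acid synthesis starts from cytosolic acetyl-CoA, which a carboxylase turns into malonyl-CoA and the synthase then assembles into palmitate. Elongases and desaturases turn palmitate into longer and unsaturated chains, and acyl-CoA synthetases activate free fatty acids for use in membranes and storage lipids. The comparison asks which of these transcripts differ when mTORC1 lacks Raptor.

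The array medians lay between 5.21 and 5.29, and the 40th percentile used as a filter between 4.69 and 4.81. Rptor, the targeted gene, averaged 6.64 ± 0.22 in RaptorKO and 6.86 ± 0.12 in WT (SD, n = 4 each) and was not called (limma adjusted p = 0.491). A dimmer Rptor probe set separated the groups, at 5.37 to 5.74 in RaptorKO and 5.89 to 6.14 in WT, a change of -0.42 that did not pass (limma over all probe sets, adjusted p = 0.0923). Where these probes lie relative to the deleted part is not known here, so they do not check the genotype labels. The markers that define the labelled cells were bright, with Foxp3 at 11.00 in RaptorKO and 10.88 in WT, Il2ra (CD25) at 11.36 in RaptorKO and 11.33 in WT, and Cd4 at 10.79 in RaptorKO and 11.01 in WT. None of 6 such markers was called, but the groups did not overlap for Cd4 (-0.22), Ctla4 (-0.32) and Ikzf2 (0.21). Over all tested genes, 5.09% were apart with RaptorKO lower and 3.73% with RaptorKO higher. Replicates 1 and 2 of both genotypes had high Xist (10.88 to 11.18) and low Eif2s3y, a Y-linked gene, and replicates 3 and 4 had the opposite (Xist 5.04 to 5.62); the labels give no sex. Genes of the list that passed the filter there were therefore also compared within each set of replicates.

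None of the 9 genes was called, against 1.96% of all tested genes (224 of 11413). The RaptorKO mean was lower for 6 of them and higher for 3, where 52.4% of all tested genes were lower. Their median change was -0.28, beside -0.0092 over all tested genes. Acss2 and Acsl3 had RaptorKO values that all lay below all WT values, 2 of 9 genes, against 5.09% of all tested genes; 0 of 9 had the groups apart in the other direction, against 3.73%. At an unadjusted p under 0.05, 5 of the 9 were lower (Acly, Acss2, Fasn, Elovl5 and Acsl3) against 7.49% of all tested genes, and 0 were higher. Elovl6 was the only one of the genes with a called probe set, and that was not its brightest. These are signals from bulk RNA after normalization, so fewer cells of a type and less RNA per cell cannot be told apart.

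**Figure D1:**
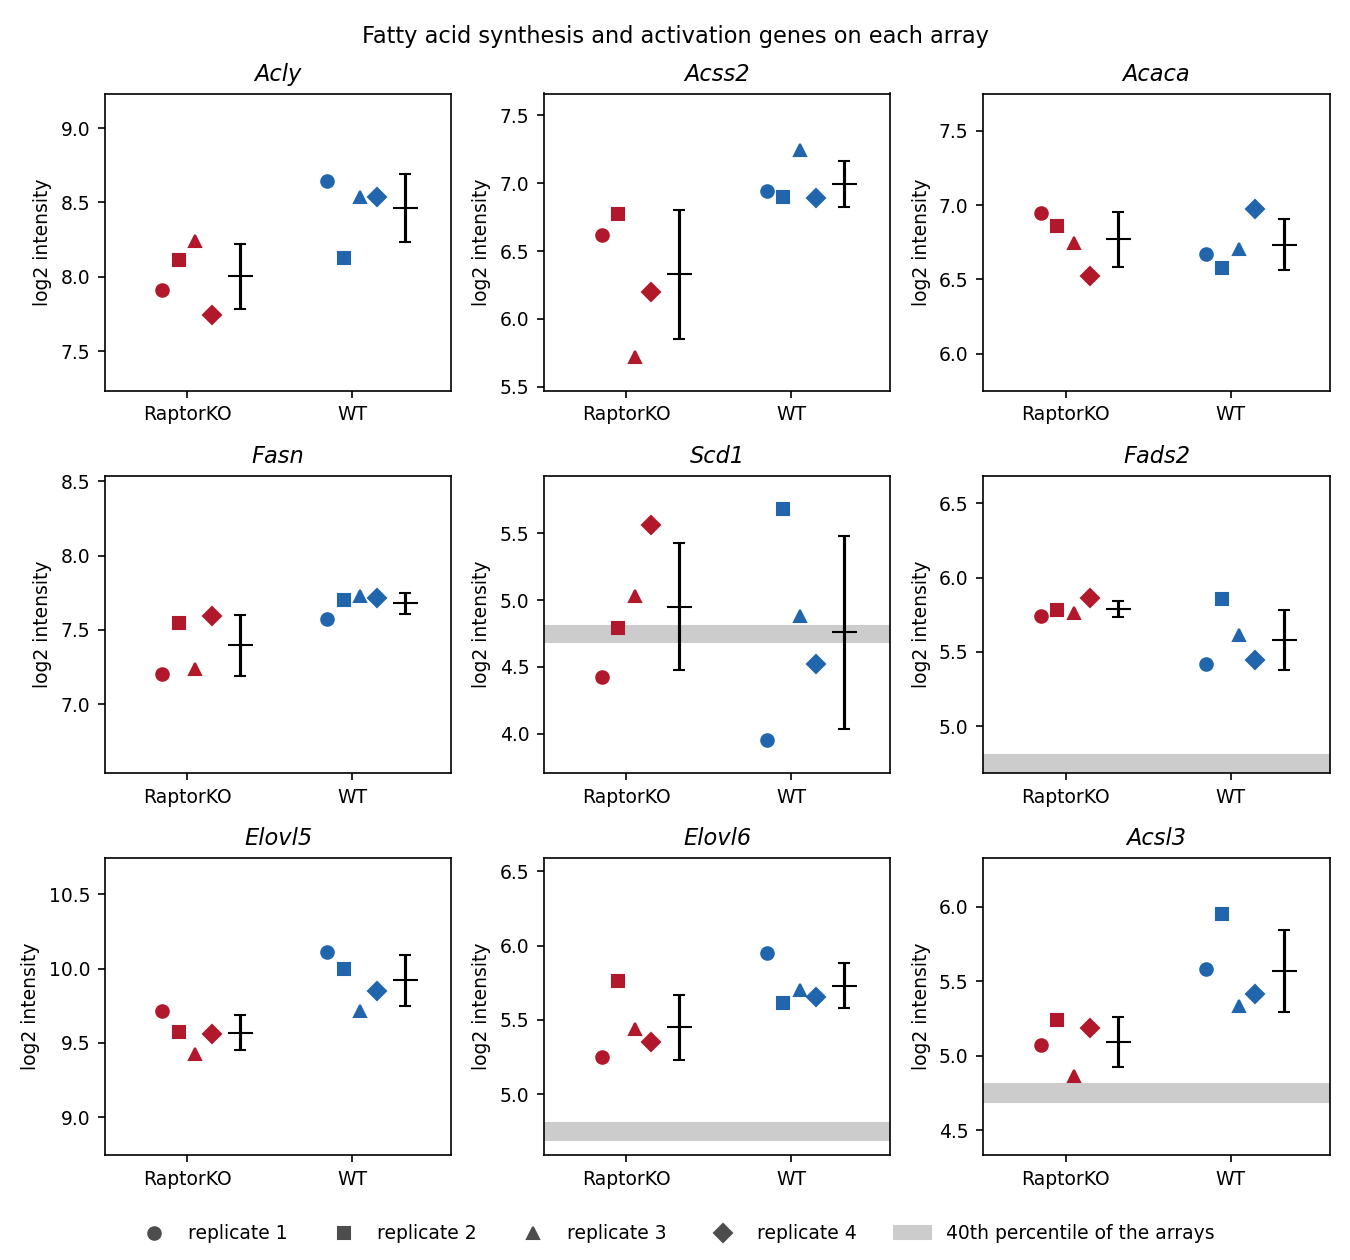
Log2 intensity of the 9 genes on each array, RaptorKO on the left and WT on the right of every panel, with the mean and SD (n = 4) beside the points, marker shapes for replicate numbers and a grey band from 4.69 to 4.81 for the arrays' 40th percentiles. The vertical scales differ between panels; the groups do not overlap for Acss2 and Acsl3, and several Scd1 points lie in or under the band.

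SREBP factors bind short elements in the promoters of lipid genes and commonly work beside NF-Y, which binds the CCAAT box. RefSeq promoter windows (GRCm38.p6, 250 bases before to 50 after the annotated start) were found for 8 of the 10 genes, and 5 are shown, those of the 4 genes with the lowest p at any probe set and, for contrast, that of Acaca, whose change was nearest to 0. They cover chr2:155517793-155518092 on the + strand for Acss2, chr1:78657575-78657874 on the + strand for Acsl3, chr9:77917115-77917414 on the + strand for Elovl5, chr3:129532136-129532435 on the + strand for Elovl6 and chr11:84195188-84195487 on the + strand for Acaca, which is known to use more than 1 promoter. Capitals mark matches on either strand to CCAAT, to the E-box CACGTG and to the SREBP core TCANNCCA.
Acss2: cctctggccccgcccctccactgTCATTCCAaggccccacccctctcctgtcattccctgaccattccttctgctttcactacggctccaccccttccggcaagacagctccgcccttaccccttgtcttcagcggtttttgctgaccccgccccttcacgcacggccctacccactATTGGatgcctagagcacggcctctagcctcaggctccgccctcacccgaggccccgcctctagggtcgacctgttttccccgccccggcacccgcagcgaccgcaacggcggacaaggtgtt
Acsl3: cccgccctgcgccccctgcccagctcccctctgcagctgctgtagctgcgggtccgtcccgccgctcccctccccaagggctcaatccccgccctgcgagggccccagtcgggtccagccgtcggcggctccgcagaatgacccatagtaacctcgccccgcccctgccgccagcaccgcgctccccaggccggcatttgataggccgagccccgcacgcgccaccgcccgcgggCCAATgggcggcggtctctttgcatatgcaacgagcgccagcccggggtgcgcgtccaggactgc
Elovl5: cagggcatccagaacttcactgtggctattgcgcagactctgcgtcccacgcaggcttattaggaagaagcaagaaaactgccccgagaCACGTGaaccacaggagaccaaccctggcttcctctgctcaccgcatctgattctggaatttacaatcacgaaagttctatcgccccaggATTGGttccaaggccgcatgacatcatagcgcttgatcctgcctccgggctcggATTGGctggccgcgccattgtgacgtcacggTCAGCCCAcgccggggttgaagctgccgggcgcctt
Elovl6: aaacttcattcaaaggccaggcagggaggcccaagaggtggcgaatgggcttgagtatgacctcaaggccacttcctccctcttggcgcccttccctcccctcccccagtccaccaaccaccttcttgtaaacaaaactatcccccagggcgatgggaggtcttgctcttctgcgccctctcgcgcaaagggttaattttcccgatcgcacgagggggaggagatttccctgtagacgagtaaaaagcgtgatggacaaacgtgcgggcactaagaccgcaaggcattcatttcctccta
Acaca: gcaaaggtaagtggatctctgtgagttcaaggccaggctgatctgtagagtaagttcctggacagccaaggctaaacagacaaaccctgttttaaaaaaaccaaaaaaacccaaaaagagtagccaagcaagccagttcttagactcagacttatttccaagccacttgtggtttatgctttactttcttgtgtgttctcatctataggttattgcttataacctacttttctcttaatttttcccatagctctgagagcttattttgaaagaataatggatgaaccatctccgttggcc
The window of Acss2 held the core TCATTCCA 227 bases and an inverted CCAAT box 73 bases before the start. Acsl3 had 1 CCAAT box, 15 bases before the start. Elovl5 had an E-box 161 bases before the start, inverted CCAAT boxes 71 and 17 bases before it, and the core TCAGCCCA just after it. No match to these 3 motifs lay in the windows of Elovl6 and Acaca. Over the 8 windows, 5 held a CCAAT box, against 37.4% of 32851 promoter windows, 3 held the core, against 15.7%, and 1 held the E-box, against 7.15%. The GC box GGGCGG, left in lower case, was in 4 of the 8 (Acly, Acss2, Fads2 and Acsl3), against 35.7%. A match is a run of letters, not evidence of binding.

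The enzymes that supply cytosolic acetyl-CoA had lower means in RaptorKO but were not called. Acss2, on chromosome 2, makes acetyl-CoA from acetate. Its values were 6.62, 6.78, 5.72 and 6.20 in RaptorKO 1 to 4, against 6.94, 6.90, 7.25 and 6.89 in WT 1 to 4. Every RaptorKO array was below every WT array, with RaptorKO 3 and 4 well below RaptorKO 1 and 2. The group means were 6.33 ± 0.47 in RaptorKO and 6.99 ± 0.17 in WT (SD, n = 4 each), a change of -0.67 (SE 0.20, 95% interval -1.10 to -0.23, limma adjusted p = 0.135), or 1.59-fold lower in RaptorKO. A second Acss2 probe set gave nearly the same change, -0.68 (adjusted p = 0.117 in the limma fit of all 18583 tested probe sets). There, too, the groups did not overlap, with 5.86, 6.42, 5.55 and 6.37 in RaptorKO against 6.75, 6.59, 7.01 and 6.56 in WT.

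At its brightest probe set, Acss2 also had the largest gap of the 9 genes between the sets of replicates. Replicates 3 and 4 alone gave -1.11, which was called (limma adjusted p = 0.048), and replicates 1 and 2 alone gave -0.22 (limma adjusted p = 0.607). The difference between the sets, -0.89 (SE 0.26), did not pass when tested as a limma interaction (unadjusted p = 0.0072, adjusted p = 0.334). No gene passed that interaction after adjustment, and 1304 of 11413 had an unadjusted p under 0.05. The second Acss2 probe set was not fitted within the sets. There RaptorKO 3 was the lowest array (5.55), but RaptorKO 4 (6.37) read close to RaptorKO 2 (6.42). The summed intensity of 8 macrophage markers also differed between the sets, at 697 and 730 in RaptorKO 3 and 4 and 392 and 434 in RaptorKO 1 and 2, with 570 and 569 in WT 3 and 4 and 271 and 341 in WT 1 and 2. Its part in the Acss2 result was not tested.

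Acly, on chromosome 11, encodes ATP citrate lyase, which makes acetyl-CoA from citrate exported by mitochondria. It read 7.91, 8.12, 8.24 and 7.74 in RaptorKO 1 to 4, against 8.64, 8.13, 8.54 and 8.54 in WT 1 to 4. WT 2 lay within the RaptorKO range, and the other 3 WT arrays lay above it. The change was -0.46 (SE 0.14, 95% interval -0.77 to -0.15, limma adjusted p = 0.151), and -0.27 at the dimmer probe set (limma over all probe sets, adjusted p = 0.388). Taken alone, replicates 1 and 2 gave -0.37 and replicates 3 and 4 gave -0.55.

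The carboxylase and the synthase, both on chromosome 11, were not called. Fasn, the synthase that builds palmitate, had 1 probe set, with 7.20, 7.55, 7.23 and 7.59 in RaptorKO 1 to 4 and 7.57, 7.70, 7.73 and 7.72 in WT 1 to 4. RaptorKO 1 and 3 were the low arrays, while RaptorKO 4 was just above WT 1. The means were 7.40 ± 0.20 in RaptorKO and 7.68 ± 0.072 in WT (SD, n = 4 each), a change of -0.28 (SE 0.12, 95% interval -0.54 to -0.032, limma adjusted p = 0.306).

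Acaca encodes the acetyl-CoA carboxylase that makes malonyl-CoA, the committed step of the pathway. Its values were 6.95, 6.86, 6.75 and 6.52 in RaptorKO 1 to 4, against 6.67, 6.58, 6.70 and 6.98 in WT 1 to 4. The groups overlapped over nearly their whole range. The change was 0.036 (SE 0.12, limma adjusted p = 0.949), with a 95% interval of -0.23 to 0.31. The second Acaca probe set gave -0.11 (limma over all probe sets, adjusted p = 0.812). Replicates 1 and 2 alone gave 0.28 and replicates 3 and 4 alone -0.20, a difference that did not pass (adjusted p = 0.426, limma interaction).

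Both elongases had lower means in RaptorKO. Elovl5, on chromosome 9, lengthens polyunsaturated fatty acids. Its values were 9.72, 9.58, 9.42 and 9.56 in RaptorKO 1 to 4, against 10.11, 9.998, 9.72 and 9.85 in WT 1 to 4. RaptorKO 1 and WT 3 touched at 9.72, and the remaining arrays were apart. The change was -0.35 (SE 0.11, 95% interval -0.60 to -0.10, limma adjusted p = 0.176). It was -0.41 in replicates 1 and 2 alone and -0.29 in replicates 3 and 4 alone. This probe set carries the x suffix, by which the array's maker marks sets with probes that may also match other transcripts. The other Elovl5 probe set has no such mark and separated the groups, with 8.61, 8.70, 8.63 and 8.46 in RaptorKO against 9.25, 9.05, 8.90 and 8.88 in WT. There the change was -0.42 (SE 0.11, limma over all probe sets, adjusted p = 0.101).

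Elovl6, on chromosome 3, lengthens palmitate to stearate, and its 3 tested probe sets gave different sizes of change. The brightest read 5.25, 5.76, 5.44 and 5.35 in RaptorKO 1 to 4, against 5.95, 5.61, 5.70 and 5.65 in WT 1 to 4. RaptorKO 2 lay above 3 of the 4 WT arrays there, and the change was -0.28 (SE 0.13, 95% interval -0.56 to 0.0015, limma adjusted p = 0.388). The second probe set read 5.25, 5.39, 4.89 and 4.78 in RaptorKO, against 5.89, 5.75, 5.81 and 5.74 in WT. All RaptorKO arrays were below all WT arrays, and RaptorKO 4 was under its array's 40th percentile.

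At this second probe set Elovl6 fell by 0.72 on the log2 scale (SE 0.14, 95% interval -1.02 to -0.41, limma over all probe sets, adjusted p = 0.025). It was the only called one of the 16 tested probe sets of the 9 genes, where 1.74% of all 18583 tested probe sets were called. The call ended without RaptorKO 3 (-0.65, adjusted p = 0.0661), RaptorKO 4 (-0.62, adjusted p = 0.0553), WT 1 (-0.69, adjusted p = 0.0868), WT 2 (-0.73, adjusted p = 0.064), WT 3 (-0.71, adjusted p = 0.0824) or WT 4 (-0.74, adjusted p = 0.0734), each in limma over all probe sets. Within replicates 1 and 2 the change was -0.50 (adjusted p = 0.325). The remaining probe set, dimmer still, gave -0.29 (limma over all probe sets, adjusted p = 0.57). With the mean of the Elovl6 probe sets the change was -0.43 and was not called (limma adjusted p = 0.0734).

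Acsl3, on chromosome 1, encodes an acyl-CoA synthetase of the endoplasmic reticulum and lipid droplets. It read 5.07, 5.24, 4.86 and 5.18 in RaptorKO 1 to 4, against 5.58, 5.96, 5.33 and 5.41 in WT 1 to 4. The groups did not overlap, and WT 2 was the highest array. Means were 5.09 ± 0.17 in RaptorKO and 5.57 ± 0.28 in WT (SD, n = 4 each), a change of -0.48 (SE 0.14, 95% interval -0.80 to -0.17, limma adjusted p = 0.135), or 1.40-fold lower in RaptorKO. A second, dimmer Acsl3 probe set gave -0.61 (limma over all probe sets, adjusted p = 0.162), with 4.43, 5.25, 4.53 and 4.33 in RaptorKO against 5.04, 5.49, 5.25 and 5.18 in WT. RaptorKO 2 lay inside the WT range there. RaptorKO 1, 3 and 4 were under the filter at this second probe set, and no WT array was. The size of its change therefore rests in part on values under the filter. A further Acsl3 probe set lay under the filter on all 8 arrays. Acsl3 differed by -0.61 in replicates 1 and 2 alone and by -0.35 in replicates 3 and 4 alone.

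The means of both desaturases were higher in RaptorKO, and neither was called. Fads2, on chromosome 19, encodes the delta-6 desaturase of polyunsaturated fatty acid synthesis. Its values were 5.74, 5.78, 5.76 and 5.86 in RaptorKO 1 to 4, against 5.42, 5.86, 5.61 and 5.45 in WT 1 to 4. WT 2 matched the RaptorKO arrays and the other 3 WT arrays were lower, for a change of 0.21 (SE 0.11, 95% interval -0.041 to 0.45, limma adjusted p = 0.5). This probe set also carries the x suffix, and the other 2 Fads2 probe sets were under the filter on all 8 arrays.

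Scd1, on chromosome 19, encodes the stearoyl-CoA desaturase that makes oleate and palmitoleate, and its signal was dim and scattered. It read 4.42, 4.79, 5.03 and 5.56 in RaptorKO 1 to 4, against 3.96, 5.68, 4.88 and 4.52 in WT 1 to 4. Only 3 RaptorKO and 2 WT arrays were above the filter, and WT alone spanned 1.73. The change of 0.19 (SE 0.32, limma adjusted p = 0.883) had a 95% interval of -0.51 to 0.89, so neither a moderate decrease nor an increase could be told from no change. A second Scd1 probe set passed the filter on 3 arrays and was not tested.

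At their brightest probe sets, Scd1 and Fads2 were both highest on RaptorKO 4 among RaptorKO arrays and on WT 2 among WT arrays. The second, untested Scd1 probe set was highest on RaptorKO 1 (5.32, against 5.15 on RaptorKO 4) and on WT 2 (5.81). Scd1 is abundant in adipocytes, which surround lymph nodes. The summed intensity of 5 adipocyte markers was 104 to 119 in RaptorKO and 93.5 to 115 in WT, again highest on RaptorKO 4 and WT 2. Of these markers, Adipoq, Lep and Lpl were under the filter on all 8 arrays. Of the 2 tested, Retn was highest on RaptorKO 4 (5.67) and WT 2 (5.54), and Fabp4 on RaptorKO 2 (5.20) and WT 2 (4.93). Sums of 5 B cell markers were 327 to 504 in RaptorKO and 234 to 551 in WT. Those of 6 CD8 T and NK cell markers were 246 to 421 in RaptorKO and 254 to 738 in WT. Both were highest on WT 2. Among RaptorKO arrays, however, the B cell sum was highest on RaptorKO 1 (504, against 404 on RaptorKO 4). The CD8 T and NK cell sum was highest on RaptorKO 2 (421) and lowest on RaptorKO 4 (246). The part of these cells in the desaturase values was not tested. Without WT 2 the changes were 0.50 for Scd1 and 0.30 for Fads2, neither called (limma adjusted p = 0.49 and 0.225).

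**Figure D2:**
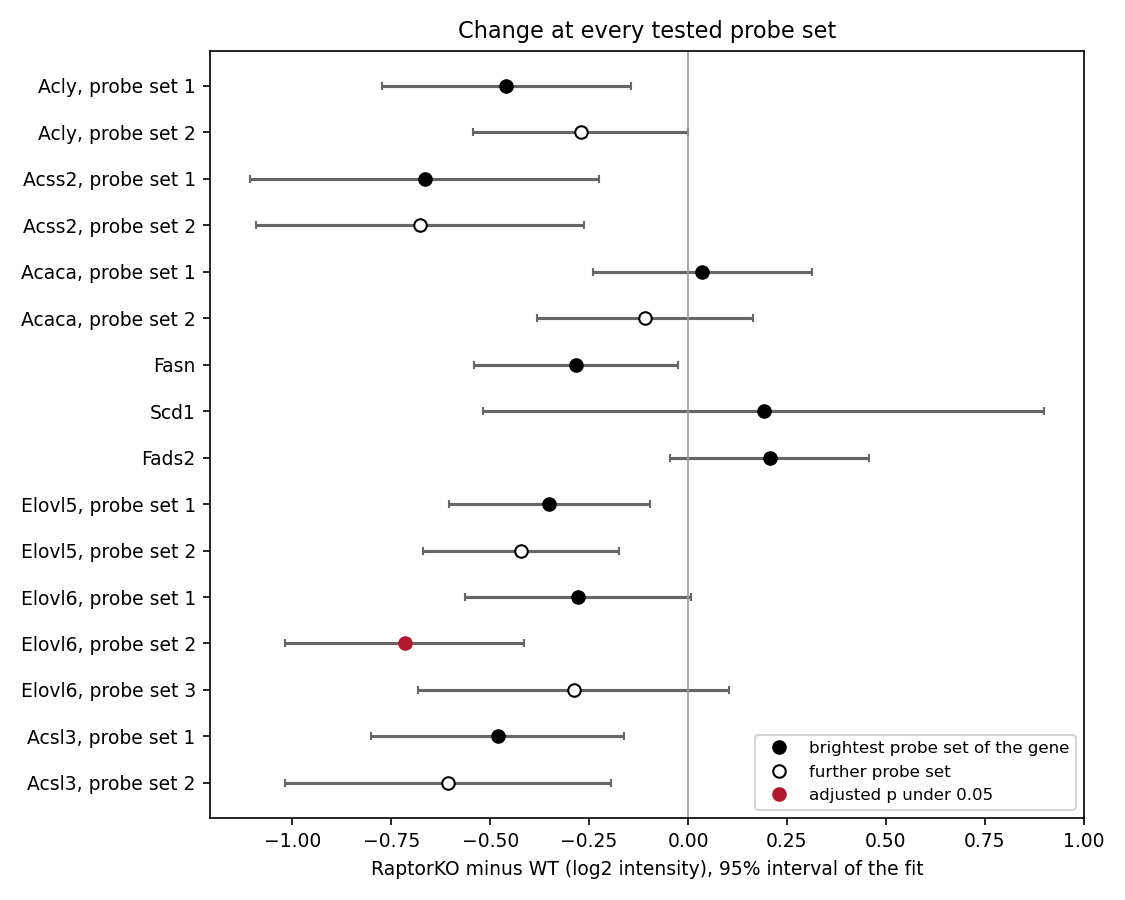
Change (RaptorKO minus WT, log2 intensity) with its 95% interval for the 16 tested probe sets of the 9 genes, from the limma fit over 18583 probe sets; filled points are each gene's brightest probe set and open points further ones. Of the 16, 13 lie below 0, and the second Elovl6 probe set, in red at -0.72, is the only one with an adjusted p under 0.05.

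Over the 20 probe sets, 16 passed the filter, and 13 of these had a lower mean in RaptorKO. The share over all tested probe sets was not counted, and over all tested genes it was 52.4%. At the dimmer tested probe sets of Acsl3 and Elovl6, some RaptorKO arrays and no WT array were under the filter. All 7 tested probe sets of Elovl6, Elovl5 and Acss2 were lower, as were both of Acly and both of Acsl3. The groups did not overlap at 5 of the 16, all lower in RaptorKO; of all tested probe sets, 5.24% were apart in that direction and 3.45% in the other. Probe sets of 1 gene share its RNA and are not replicates.

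**Figure D3:**
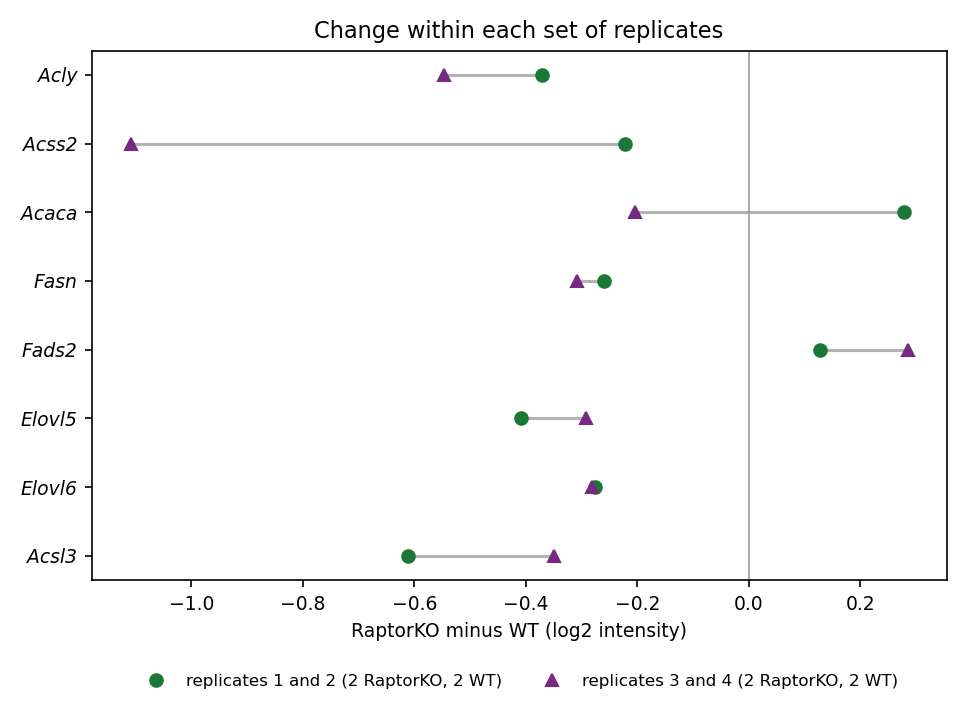
Change (RaptorKO minus WT, log2 intensity) of the 8 genes that passed the filter in both sets, within replicates 1 and 2 (circles) and within replicates 3 and 4 (triangles), 2 arrays of each genotype per set. Acss2 lies at -0.22 and -1.11 and Acaca at 0.28 and -0.20; no interaction passed the test.

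Within replicates 1 and 2 none of the genes was called, and within replicates 3 and 4 Acss2 alone was. Over all genes these fits called 10 of 10596 and 130 of 10659, with 1184 and 1936 at an unadjusted p under 0.05. For 7 of the 8 genes tested in both sets the sign of the change was shared, Acaca being the exception. With a term for the set the changes stayed as they were by construction, and the lowest adjusted p of the 9 was that of Acsl3 (limma adjusted p = 0.0817).

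The other genes of the pathway, 37 in a list chosen for their role, were mostly near 0. Of these, 32 were named on the array and 21 tested, and 0 were called. At an unadjusted p under 0.05, 4 were lower, against 7.49% of all tested genes, and 0 were higher. The median change of the 21 was -0.030, with 13 negative and 8 positive. In 2 of the 21, Tecr and Acsl5, the RaptorKO values all lay below the WT values, against 5.09% of all tested genes. Acacb, the second carboxylase, and Me1, which makes NADPH, were under the filter on all arrays, as were Elovl2, Elovl3, Elovl4 and Elovl7.

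Acsbg1, an acyl-CoA synthetase that was above the filter on all 8 arrays, had the lowest p of these genes. It read 5.73, 5.97, 5.32 and 5.47 in RaptorKO 1 to 4, against 6.33, 5.95, 6.35 and 6.59 in WT 1 to 4. WT 2 lay just under RaptorKO 2, and the remaining arrays were apart. The change was -0.68 (SE 0.16, 95% interval -1.04 to -0.32, limma adjusted p = 0.061), close to the threshold. It was called without RaptorKO 2 (-0.80, limma adjusted p = 0.0294) or WT 2 (-0.80, limma adjusted p = 0.0409), the arrays that crossed between the groups. Leaving out any other single array gave no call. Acsl5, another acyl-CoA synthetase, differed by -0.22 (limma adjusted p = 0.356).

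In the elongation cycle, Elovl1, an elongase of saturated very long chains, differed by -0.27 and the reductase Tecr by -0.20 (limma adjusted p = 0.3 and 0.383). The citrate carrier Slc25a1 differed by 0.17 and the mitochondrial acetyl-CoA synthetase Acss1 by -0.22. Fads1, the delta-5 desaturase, differed by 0.16 and its relative Fads3 by -0.030. In mitochondrial fatty acid synthesis Mcat differed by 0.14 and Cbr4 by -0.051. The lowest limma adjusted p of these last 6 was 0.557, for Slc25a1.

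Among 10 tested regulators of lipid synthesis, of 12 on the array and 14 listed, 0 were called and the median change was -0.054. Srebf1 and Nr1h2 were listed but had no probe set assigned to them alone, so neither was analysed here. Insig1, an SREBP target that holds SREBP in the endoplasmic reticulum, was lower on every RaptorKO array, with 7.13, 7.25, 7.26 and 6.86 in RaptorKO against 7.78, 7.29, 8.07 and 7.64 in WT (change -0.57, SE 0.16, limma adjusted p = 0.107). Srebf2, the SREBP most tied to sterol genes, averaged 8.96 ± 0.18 in RaptorKO and 9.21 ± 0.038 in WT (SD, n = 4 each; change -0.25, limma adjusted p = 0.356). For both genes every RaptorKO array lay below every WT array. That is 2 of the 10 tested regulators, against 5.09% of all tested genes.

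Beside the 9 genes, the sterol synthesis enzymes, which share SREBP control, had 2 called of 14 tested (Idi1 -0.87, Cyp51 -0.56), both lower. Of all tested genes, 1.96% were called. The change was negative in all 14 sterol genes (median -0.39), against 52.4% of all tested genes. Fatty acid oxidation, the opposing pathway, had 0 called of 15, 0 at an unadjusted p under 0.05 and a median of -0.0017, with Etfdh at 0.29 and Acaa2 at 0.11. Whether the lists differ from each other was not tested.

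**Figure D4:**
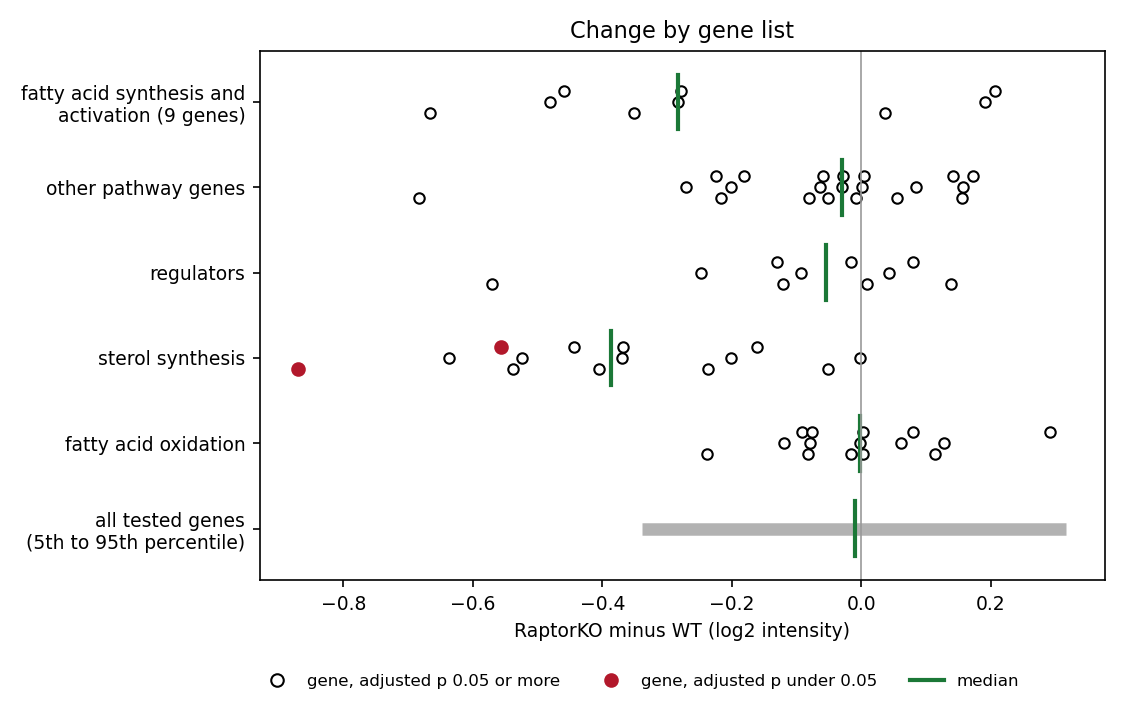
Change (RaptorKO minus WT, log2 intensity) of each tested gene by list, with green bars at the medians and red points for adjusted p under 0.05; the grey bar spans the 5th to 95th percentile of all 11413 tested genes (-0.34 to 0.32). The median of the 9 fatty acid synthesis and activation genes is -0.28, that of sterol synthesis -0.39 and that of fatty acid oxidation -0.0017.

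Markers of other cells also differed in mean between genotypes, and none of them was called. All 3 tested markers of conventional CD4 T cells were lower in RaptorKO, Igfbp4 by -0.33 (limma adjusted p = 0.241), Lef1 by -0.065 and Satb1 by -0.037. Macrophage markers were higher in RaptorKO at all 7 tested (median 0.39), with summed intensities of 392 to 730 in RaptorKO and 271 to 570 in WT, while Adgre1 was under the filter on all arrays. Of the 4 tested CD8 T and NK cell markers, Cd8a and Cd8b1 differed by -1.03 and -0.77 (limma adjusted p = 0.341 and 0.103), and Gzma and Eomes by 0.28 and 0.073. Ncr1 and Klrb1c, which mark NK cells, were under the filter on all arrays. The part of these cells in the lower values of Acss2, Acsl3, Acly, Elovl5, Elovl6 and Fasn was not tested.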

How the data were processed

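Total RNA of 8 samples was amplified, labelled with biotin and hybridised to 1 array each, per the labels' protocols. For 45141 probe sets the authors deposited log2 intensities made with RMA, per the submitters' processing notes, which name no version or settings. No further normalization was applied. Gene names came from the platform annotation: 28898 probe sets had 1 gene, 551 several and 15692 none, controls included. Symbols were updated by Entrez identifier to RefSeq (GRCm38.p6), which matched 28689. No source used here names a genome build for the array.

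Each gene was represented by its probe set with the highest mean over 8 arrays and tested if 4 or more arrays had it above their own 40th percentile. RaptorKO was compared with WT in limma 3.58.1 (R 4.3.3; lmFit, eBayes, no covariates) with Benjamini-Hochberg adjustment over all 11413 genes, and in a second fit over all 18583 probe sets that passed. Intervals are 95% intervals of the fit. The fit was tested on simulated data. Promoter windows came from RefSeq and were searched on both strands. The number of arrays limits the precision. Plots used Python 3.11.15 and matplotlib 3.10.9.

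The genes, lists and alternatives were chosen with earlier results of these data known. Named are the 9 genes, Rptor and, from each other list of lipid genes, the called genes or else the 2 with the lowest p. Markers of cell types were outside that rule; those named, and genes named only for lying under the filter or for groups that did not overlap, were chosen after their values were seen. The alternatives tried were the replicate number as a block, averaged probe sets, every probe set, a 60th percentile filter or none, quantile normalization, centring on the median or 75th percentile, an intensity trend, robust eBayes, array weights, leaving out each array, a term for replicates 1 and 2 against 3 and 4, and each of these sets alone. Following the called Elovl6 probe set through them was chosen after seeing the data.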

Additional observations from a re-analysis of the deposited data

Results flagged for a closer look

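Acss2 in WT 3 read 7.25, against 6.94 on the next WT array, a gap of 0.85 of the group's whole range, which is above Dixon's 95% critical value for 4 samples. Of 18 groups of 4 arrays checked for the 9 genes, 1 passed that value, and about 1 in 20 is expected by chance. Without WT 3 the Acss2 change was -0.58 (limma adjusted p = 0.328).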

How the results depend on the processing

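Acly, Acss2, Fasn, Fads2, Elovl5, Elovl6 and Acsl3 kept the sign of their change under every alternative that tested them, up to 22 each. By construction, the replicate block, every probe set, the filters, the intensity trend, robust eBayes and the set term left each change as it was. The sign could turn only under the others. None of the 9 genes was called in any alternative except Acss2 within replicates 3 and 4 alone (1 gene called, -1.11). Leaving out single arrays, 0 of the 9 were called each time, and Acss2 ranged between -0.81 without RaptorKO 2 and -0.46 without RaptorKO 3. Acaca turned to -0.036 with its probe sets averaged and to -0.20 within replicates 3 and 4, and lay between -0.023 and 0.12 without single arrays; Scd1 lay between -0.077 and 0.50 without single arrays. Of the other pathway genes 1 was called, Acsbg1, with the mean of probe sets, the 60th percentile filter, 75th percentile centring, array weights or replicates 3 and 4 alone, 2 (Acsbg1 and Tecr) with an intensity trend, and 0 to 1 without single arrays. Over all genes 370 were called with an intensity trend, 10 within replicates 1 and 2, 130 within replicates 3 and 4, and 98 to 251 without single arrays; fewer arrays enter the last 3 of these. The interaction with the set of replicates called 0 of the 9 in all 18 alternatives. The called Elovl6 probe set kept its call in 11 of 18 alternatives, was lower in RaptorKO in all 18 and was not tested under the 60th percentile filter or in replicates 3 and 4 alone. With the replicate number as a block 175 genes and 0 of the 9 were called. Same-numbered arrays were not paired in the main fit. Their deviations from the group means correlated at -0.15 to 0.16, and not every array correlated best with its own number. They were alike in Xist and Eif2s3y, as were all arrays of the same set of replicates. The labels name no shared mouse or batch.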
